A study of Mus musculus with 16 samples.

Results

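The genes described here encode the proteins of the cytosolic ribosome, and they were chosen by symbol alone: Rps and Rpl genes with a number, the stalk proteins Rplp0 to Rplp2 and Rpsa, without the Rps6k kinases and named pseudogenes. The rule found 63 genes among the 19505 gene symbols measured. Of these, 55 are canonical ribosomal proteins (22 of the small subunit, 31 of the large subunit and 2 of the stalk, Rplp0 and Rplp1), and 8 are paralogues or copies (Rpl3l, Rpl7l1, Rpl10l, Rpl22l1, Rpl32l, Rpl39l, Rps4l and Rps27l). Another 26 symbols of the rule in the RefSeq gene table, Rplp2 among them, had no probe set here that named them alone and were not analysed. Every member was measured by 1 probe set.

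Expression was measured on Clariom S arrays in FACS-sorted cells of the olfactory mucosa of S100a5-tauGFP mice, which carry a green fluorescent reporter named for S100a5, a gene of olfactory sensory neurons that depends on their activity. The 24 mice, of both sexes and 7 to 12 weeks old, stayed in individual chambers of clean air flowing at 3.1 L/min for 40 h. After 26 h, pools of 3 mice began to receive 10 s pulses every 20 min of either 2-octanone, an 8-carbon ketone odorant, or filtered air as vehicle. Each of the 8 pools, 4 per exposure, was sorted by FACS into GFP+ and GFP- cells with 1 array each. The groups vehicle GFP+, vehicle GFP-, 2-octanone GFP+ and 2-octanone GFP- thus held 4 arrays each, and all mice carried the reporter. Values are log2 signals, and a difference of 1 is a doubling or halving of signal.

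Ribosomal proteins are made in matched amounts and join ribosomal RNA in the nucleolus to form the small subunit, which reads the messenger RNA, and the large subunit, which joins amino acids. Most of their messenger RNAs belong to the TOP (terminal oligopyrimidine) class: they begin with a cytosine followed by an unbroken run of pyrimidines, through which mTOR signalling and Larp1 set their translation and stability. Growing and dividing cells are known for high levels of these messenger RNAs. Several genes also have paralogues with a more restricted expression, such as Rpl3l in striated muscle and Rpl10l and Rpl39l in the male germ line.

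The start of the transcript is the sequence feature by which this gene family is best known, so short windows around annotated RefSeq starts are shown. Each has 15 bases before the start and 15 from it, on GRCm38.p6, and capitals mark the pyrimidine run that begins with a C at the annotated start. The canonical examples span the largest and smallest sort differences among the members with such a start, and a selection of the paralogues or copies follows. Starts of Rpl3l and Rpl7l1 and a further start of Rps27l are not printed.

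Rps15a, chr7:118116133-118116162, minus strand: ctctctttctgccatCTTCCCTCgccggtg
Rps21, chr2:180257364-180257393, plus strand: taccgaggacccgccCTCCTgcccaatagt
Rpl35a, chr16:33056467-33056496, plus strand: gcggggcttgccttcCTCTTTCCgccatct
Rpl35, chr2:39005117-39005146, minus strand: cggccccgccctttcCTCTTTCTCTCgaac
Rps6, chr4:86857353-86857382, minus strand: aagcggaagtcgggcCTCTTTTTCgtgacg
Rpl15, chr14:18270972-18271001, minus strand: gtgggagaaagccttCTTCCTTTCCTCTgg
Rpl32l, chr10:20208424-20208453, plus strand: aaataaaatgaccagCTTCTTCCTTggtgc
Rpl22l1, chr3:28805493-28805522, plus strand: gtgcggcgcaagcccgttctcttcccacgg
Rps27l, chr9:66946071-66946100, plus strand: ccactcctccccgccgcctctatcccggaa
Rpl10l, chr12:66284387-66284416, minus strand: tttggcctccattttgcggctggcggtggg
Rpl39l, chr16:10170213-10170242, plus strand: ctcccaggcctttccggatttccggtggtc

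The promoter table held 61 starts for 50 of the 63 members. A start with a C followed by at least 4 more pyrimidines was found at 11 of 52 canonical starts (21.2%), at 1 of 9 starts of paralogues or copies, that of Rpl32l, and at 823 of all 32851 starts in the table (2.51%). Annotated starts can lie a few bases off the starts that cells use, so no match says only that these letters are not at that base. The search for other short sequences covered 300 bases, 250 before the start and 50 after it. CCGGAAG, read on both strands, was present at 38.5% of the canonical starts and 8.86% of all starts. GGGCGG, also read on both strands, was present at 57.7% and 35.7%, and TATAAA, likewise on both strands, at 9.62% and 13.6%. GGGCGG and CCGGAAG are the core letters of sites for Sp1-like and ETS-type factors.

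The arrays were alike in overall quality. Array medians over all genes were 7.64 to 7.73 in GFP+ and 7.92 to 8.01 in GFP- cells, background probe sets averaged 5.40 to 5.61, and arrays of a group correlated at 0.982 to 0.995 across probe sets. Omp, which marks mature olfactory sensory neurons, was high in both fractions, at 18.35 to 18.45 in GFP+ and 17.76 to 18.36 in GFP- cells. The replicate 4 pools stood apart: their S100a5 signals were 13.22 and 13.92 in GFP+ cells against 16.47 to 16.98 in the other 6 pools. Their GFP- arrays were low as well, at 13.11 and 13.55 against 15.45 to 15.81. The S100a5 difference between the fractions was 0.11 in vehicle pool 4 and 0.38 in 2-octanone pool 4, against 0.87 to 1.22 in the other pools. The GFP- array of vehicle replicate 4 also had the highest mean of proliferation markers, 10.37 against 8.54 to 9.55 in the other GFP- arrays, and the lowest mean of mature sensory neuron markers, 16.36 against 16.71 to 16.99. Results are therefore also given without both replicate 4 pools where that changed a count.

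The sort separated cell mixtures as well as GFP. Markers of dividing cells were lower in GFP+ cells for 11 of 11 measured genes, their mean running from 6.59 to 7.26 in GFP+ and from 8.54 to 10.37 in GFP- arrays. Neutrophil markers were lower for 10 of 10 (means of 6.67 to 12.35 against 14.21 to 15.89), lymphocyte markers for 5 of 5 (5.0 to 5.53, the level of background probe sets, against 6.68 to 7.89) and microvillar markers for 5 of 5 (6.54 to 7.78 against 9.26 to 10.53). Immature neuron markers were lower for 7 of 10 (10.58 to 11.03 against 11.96 to 13.09), globose basal cell markers for 5 of 6 (6.68 to 7.03 against 8.05 to 8.79), macrophage markers for 5 of 9 (7.06 to 8.38 against 8.70 to 10.09) and erythroid markers for 2 of 2 (8.69 to 9.12 against 10.34 to 12.47). The macrophage markers were uneven: their differences ran from -4.52 (H2-Ab1) to -0.01 (C1qc), with a list median of -0.54. Among the mature sensory neuron markers, 4 of 11 were higher in GFP+ cells (16.96 to 17.17 against 16.36 to 16.99). Of all probe sets, 14.0% were called lower and 16.7% higher at an adjusted p under 0.05 by limma. In other lists few markers passed, none was higher, and the ranges of the array means overlapped. Lower were 2 of 6 sustentacular markers, Krt18 (-2.35) and Krt8 (-1.94), with a list median of -0.04 (means of 10.23 to 11.57 against 11.11 to 12.39). So was 1 of 4 horizontal basal markers, Icam1 (-0.56), with a median of 0.08 (4.99 to 5.66 against 5.20 to 5.43). The Bowman's gland list had 1 of 4 lower, Sox9 (-3.08), and a median of -0.26 (8.07 to 9.94 against 8.71 to 10.74). The part of these cells in the ribosomal differences below was not tested, and in bulk samples fewer cells of a type and less RNA per cell cannot be told apart.

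Ribosomal protein genes had lower signals in the GFP+ fraction. Over both exposures 53 of 63 members were lower and none was higher at an adjusted p under 0.05 by limma (1 member was higher at an unadjusted p under 0.05), where 30.7% of all 19572 probe sets were called and 14.0% were called lower. The median difference, GFP+ minus GFP-, was -0.59 over the members and 0.13 over all genes. The canonical genes carried the difference: 52 of 55 were lower, all 55 had a negative difference and their median was -0.67, whereas with each array centred on its median 35 were lower, the median was -0.39, and Rpl21 (0.01) and Rpl41 (0.10) turned positive. Centring moved every difference up by the same amount, the median of all genes from 0.13 to 0.41, and gave 36 members lower and 4 higher, against 53 and 0 as deposited and against 10.5% and 66.9% of all probe sets. The 4 were the paralogues Rpl3l, Rpl7l1, Rpl39l and Rps27l. Quantile normalisation left 52 members lower, where 13.3% of all probe sets were called lower. In 17 of the 63 members the 8 GFP+ arrays all lay below the 8 GFP- arrays, as they did for 8.25% of all probe sets.

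**Figure D1:**
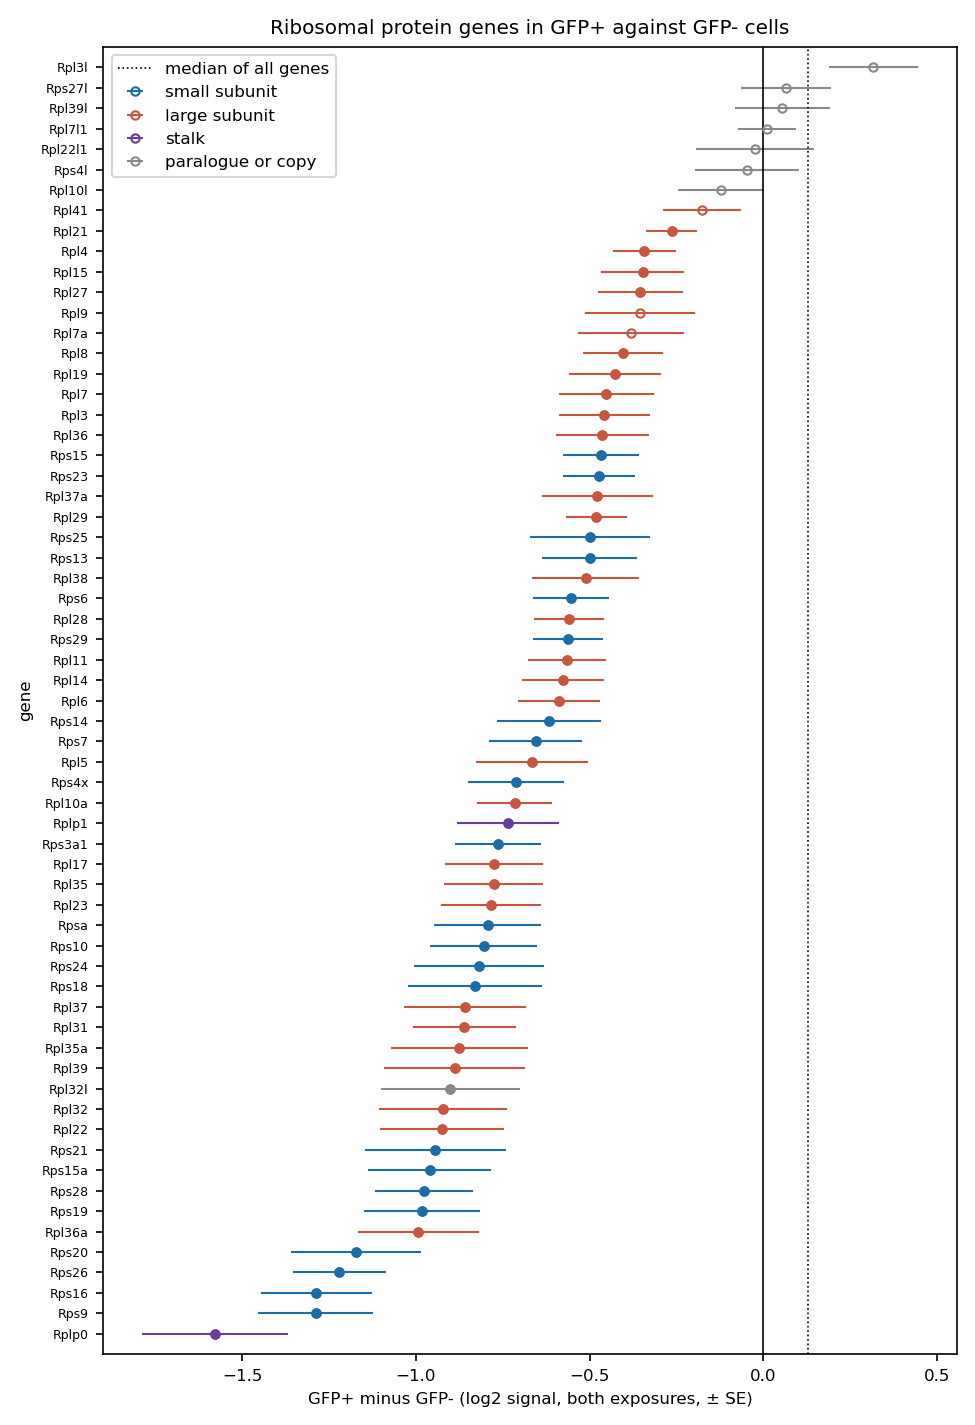
Sort difference (GFP+ minus GFP-) of both exposures combined for each of the 63 members (x axis, log2 signal, points with standard errors, n = 8 arrays per fraction), ordered by size and coloured by class; filled points passed an adjusted p of 0.05 in limma and the dotted line is the median of all genes (0.13). Canonical genes run from -1.58 (Rplp0) to -0.18 (Rpl41), and 7 of the 8 paralogues or copies lie around 0 or above; centring each array on its median moves Rpl21 and Rpl41 above 0.

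The stalk proteins bind the elongation factors to the large subunit. Rplp0, the protein on which the stalk is built, had the largest difference of all members. In the vehicle pools 1 to 4 it read 12.20, 12.23, 12.01 and 13.47 in the GFP- arrays against 11.24, 10.69, 10.66 and 10.69 in the GFP+ arrays. In the 2-octanone pools 1 to 4 the readings were 12.21, 13.04, 12.08 and 12.47 in GFP- and 10.82, 10.98, 10.52 and 11.48 in GFP+ cells. The fractions did not overlap: the highest GFP+ array stayed below the lowest GFP- array. The difference was -1.58 (SE 0.21), a signal 2.99-fold lower in GFP+ cells (limma adjusted p = 1.83e-05), and -1.48 without both replicate 4 pools. Rplp0 also had the largest SD within groups, 0.465. Rplp1, its partner in the stalk, was brighter and differed less, by -0.73 (SE 0.15, limma adjusted p = 0.00109). Its GFP+ arrays ran from 14.54 to 15.45 and its GFP- arrays from 15.28 to 16.14, so the fractions overlapped, although Rplp1 was lower in GFP+ cells in 8 of 8 pools.

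All 22 genes of the small subunit were lower in GFP+ cells over both exposures, with differences from -1.29 to -0.47 and a median of -0.80 as deposited. Rps26, which lies where the messenger RNA leaves the ribosome, had the smallest p of all members. Its vehicle arrays read 13.15, 13.55, 13.10 and 13.95 in GFP- and 12.60, 12.30, 12.08 and 12.36 in GFP+ cells of pools 1 to 4. After 2-octanone the corresponding values were 13.06, 13.73, 13.27 and 13.25 in GFP- and 11.94, 12.10, 11.82 and 12.10 in GFP+ cells. Every GFP+ value lay below every GFP- value, and the difference was -1.22 (SE 0.13), 2.33-fold (limma adjusted p = 2.07e-06).

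Rps16 and Rps9, both structural proteins of the small subunit, shared a difference of -1.29. Rps16 read 12.87, 12.95, 12.62 and 13.82 in vehicle GFP- against 12.03, 11.69, 11.54 and 11.97 in vehicle GFP+ cells. In 2-octanone pools it read 12.58, 13.39, 12.83 and 13.15 against 11.67, 11.61, 11.56 and 11.85. Rps9 read 13.74, 13.93, 13.38 and 14.51 against 13.30, 12.60, 12.45 and 12.53 in vehicle pools, and 13.55, 14.25, 13.85 and 13.93 against 12.25, 12.47, 12.42 and 12.80 in 2-octanone pools. Neither gene's fractions overlapped, with standard errors of 0.16 and 0.17 and limma adjusted p-values of 9.02e-06 and 1.30e-05. In both genes the vehicle GFP- array of replicate 4 was the highest of the 16. Rps20 followed with -1.17 (SE 0.19, limma adjusted p = 0.00013), and its fractions did not overlap either (10.74 to 11.79 in GFP+ and 11.90 to 13.16 in GFP- arrays).

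The other small-subunit genes with a well-known role differed by less. Rpsa, which is also described as a laminin receptor, differed by -0.79 (SE 0.15, limma adjusted p = 0.000807). Rps4x, encoded on the X chromosome, differed by -0.71 (SE 0.14, adjusted p = 0.000798). Rps6 is the ribosomal protein that S6 kinase phosphorylates, and its start window above shows a TOP run. It read 15.86, 16.01, 15.66 and 16.20 in vehicle GFP- and 15.63, 15.29, 15.26 and 15.54 in vehicle GFP+ cells. After 2-octanone it read 15.78, 16.29, 15.81 and 16.18 in GFP- and 15.34, 15.39, 15.33 and 15.59 in GFP+ cells. The separation was narrow, 15.63 against 15.66 at the nearest, and the difference was -0.55 (SE 0.11), 1.47-fold (limma adjusted p = 0.00088). Rps23, a protein of the decoding centre and the brightest member at a mean signal of 16.53, differed by -0.47 (SE 0.10, adjusted p = 0.00228), with GFP+ arrays at 16.12 to 16.53 and GFP- arrays at 16.46 to 17.14. With each array centred on its median the Rps23 difference was -0.19 (adjusted p = 0.0992).

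In the large subunit 28 of 31 genes were lower in GFP+ cells, with a median of -0.56 and a range from -0.99 to -0.18 as deposited. Rpl36a, on the X chromosome, had the largest difference of this class. It read 12.76, 13.11, 12.48 and 13.58 in vehicle GFP- and 12.28, 11.74, 11.68 and 12.07 in vehicle GFP+ cells. In 2-octanone pools it read 12.37, 13.43, 12.59 and 13.01 in GFP- and 11.86, 11.82, 11.73 and 12.21 in GFP+ cells. Its fractions were apart, and the difference was -0.99 (SE 0.17, limma adjusted p = 0.000315). Rpl5 and Rpl11 form with 5S RNA the particle that can bind the p53 regulator Mdm2. Rpl5 differed by -0.67 (SE 0.16, adjusted p = 0.00469) and Rpl11 by -0.57 (SE 0.11, adjusted p = 0.00100), both lower in 8 of 8 pools, with overlapping fractions. Rpl29 varied little within groups and differed by -0.48 (SE 0.09, adjusted p = 0.000508) without overlap (13.17 to 13.56 in GFP+ and 13.69 to 13.97 in GFP- arrays). With median centring its difference was -0.20 (adjusted p = 0.0529).

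The 3 canonical genes that did not pass the test were all of the large subunit: Rpl7a at -0.38 (SE 0.15, limma adjusted p = 0.0686), Rpl9 at -0.36 (SE 0.16, adjusted p = 0.0987) and Rpl41 at -0.18 (SE 0.11, adjusted p = 0.237). When each pool entered the fit as a term, setting the fractions of 1 pool against each other, Rpl7a (adjusted p = 0.00904) and Rpl9 (adjusted p = 0.0251) passed and Rpl41 (adjusted p = 0.185) did not. Rpl41, the smallest ribosomal protein, is also one of the brightest members. Its arrays read 16.05, 16.02, 15.75 and 16.24 in vehicle GFP-, 16.22, 15.69, 15.77 and 15.99 in vehicle GFP+, 15.87, 16.38, 16.08 and 16.24 in 2-octanone GFP- and 15.83, 15.75, 15.79 and 16.18 in 2-octanone GFP+ cells. These ranges lie almost on top of each other. Rpl4 and Rpl21, with Rps23 the members of highest signal, differed by -0.34 (SE 0.09, adjusted p = 0.00875) and -0.26 (SE 0.07, adjusted p = 0.0130). The Rpl21 call was lost without 2-octanone replicate 2 (-0.24, adjusted p = 0.0536) and without vehicle replicate 2 (-0.23, adjusted p = 0.0543), and the Rpl4 call with median centring (-0.07, adjusted p = 0.510).

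Among canonical genes of lower signal the differences were larger. The 18 genes with mean signals from 9.19 to 13.06 had a median difference of -0.92, the 18 genes from there to 14.48 one of -0.64, and the 19 genes up to 16.53 one of -0.56. Other genes of the same signal ranges had medians of 0.14, 0.10 and 0.13. Signals of different probe sets are not levels per length, and bright probe sets may respond less than in proportion. This order therefore describes the probe sets, and whether it holds for the transcripts was not tested. The 11 canonical genes with a TOP start at the annotated base had a median difference of -0.78 and the 32 without one of -0.71, a description with no test.

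The paralogues did not follow the canonical genes as a group: their median difference was -0.01, and 1 of the 8, Rpl32l, was lower in GFP+ cells. That median rests partly on probe sets at background. Rpl3l and Rpl39l lay below the brightest background probe set on 16 of 16 arrays, and Rpl10l on 15. Rpl32l read 10.15, 10.25, 9.56 and 10.92 in vehicle GFP- and 9.65, 9.21, 9.0 and 10.03 in vehicle GFP+ cells. After 2-octanone it read 10.14, 10.95, 10.17 and 10.55 against 9.45, 9.42, 8.94 and 9.78. It was lower in each pool although the fractions overlapped over all arrays, and its difference was -0.90 (SE 0.20, limma adjusted p = 0.00262). Its parent Rpl32 differed by -0.92 (SE 0.19, adjusted p = 0.00111). Probe sets of near-identical copies may detect each other's RNA, as they may detect processed pseudogenes, so the value of Rpl32l cannot be separated from that of Rpl32.

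Other parents and paralogues were set side by side, with the same limit on copies that detect each other's RNA. Rpl22 differed by -0.93 (SE 0.18, limma adjusted p = 0.000770), with GFP+ arrays at 13.17 to 14.10 and GFP- arrays at 13.96 to 15.10. Rpl22l1, which can replace it in the ribosome, read 9.85, 9.88, 9.75 and 10.42 in vehicle GFP-, 10.07, 9.64, 10.18 and 10.57 in vehicle GFP+, 9.69, 10.30, 9.64 and 10.55 in 2-octanone GFP- and 9.55, 9.99, 9.67 and 10.22 in 2-octanone GFP+ cells. It was lower in 4 of 8 pools and differed by -0.02 (SE 0.17, adjusted p = 0.927). Rpl39, a small protein of the exit tunnel, differed by -0.89 (SE 0.20, adjusted p = 0.00326). Rpl39l, its testis-type copy, differed by 0.05 (SE 0.14) at a mean signal of 5.09, below the mean of the background probe sets. The difference between a parent and its paralogue was not tested.

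Most of the remaining copies gave small differences. Rps27l, known as a p53 target, differed by 0.07 (SE 0.13), Rpl7l1 by 0.01 (SE 0.08), Rps4l by -0.05 (SE 0.15) and Rpl10l by -0.12 (SE 0.12). The sign of the last 3 turned with quantile normalisation or median centring, and that of Rps27l stayed positive under both. RefSeq lists Rps4l as a transcribed pseudogene. Rpl10l, at a mean signal of 7.56, lay below the brightest background probe set on 15 of 16 arrays. Rpl3l, the striated-muscle copy of Rpl3, had the highest difference of any member at 0.32 (SE 0.13, limma adjusted p = 0.0723), but its mean signal of 4.86 was below the mean of the background probe sets. It passed the test when pools entered the fit as terms (adjusted p = 0.0217), with array weights (0.37, adjusted p = 0.0364), with median centring (0.60, adjusted p = 0.00102) and without vehicle replicate 1 (0.35, adjusted p = 0.0368).

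Within pools, 46 of 63 members were lower in GFP+ cells in 8 of 8 pools, compared with 12.2% of all probe sets. These were 19 of the 22 small-subunit genes, 24 of the 31 large-subunit genes, both stalk genes and Rpl32l. The size differed between pools. The median difference of the 63 members was -0.16, -0.72, -0.41 and -0.89 in vehicle pools 1 to 4 and -0.58, -1.01, -0.67 and -0.48 in 2-octanone pools 1 to 4. Vehicle pool 1 was thus the smallest and 2-octanone pool 2 the largest. In vehicle pool 1, 8 canonical genes had a positive difference, from 0.03 for Rpl15 and Rps14 to 0.25 for Rpl9. The small subunit had the larger median in every pool, for example -0.30 against -0.12 in vehicle pool 1 and -1.28 against -0.97 in 2-octanone pool 2.

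**Figure D2:**
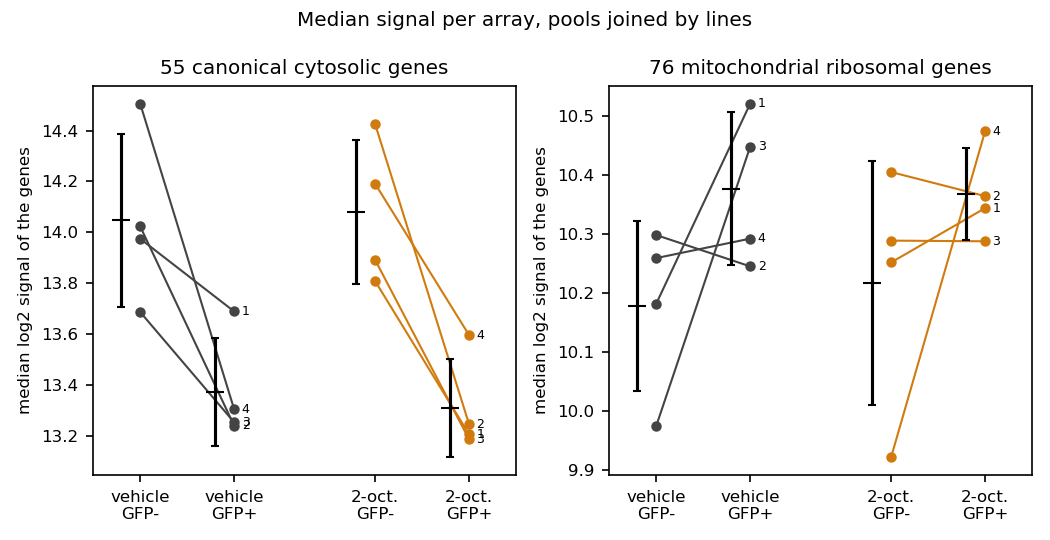
Median log2 signal per array of the 55 canonical genes (left) and of 76 mitochondrial ribosomal protein genes (right), with the GFP- and GFP+ arrays of a pool joined by a line and numbered by replicate, and bars giving mean and SD of each group (n = 4). The canonical median fell from GFP- to GFP+ in all 8 pools (13.69 to 14.51 against 13.19 to 13.69), and the mitochondrial medians overlapped (9.92 to 10.40 against 10.24 to 10.52); values are as deposited, and median centring narrows the canonical difference.

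The canonical genes moved together from array to array within a group, beyond the sort. Against its group mean, the vehicle GFP- array of replicate 4 was high for 55 of 55 canonical genes by 0.45 on average, and that of replicate 3 was low for 55 of 55 (-0.36). The vehicle GFP+ array of replicate 1 was high for 55 of 55 (0.32), and so was the 2-octanone GFP- array of replicate 2 (0.33). The 2-octanone GFP- array of replicate 1 was low for all 55 (-0.29), and the 2-octanone GFP+ array of replicate 4 was high for 53 of 55 (0.32). A shift of 1 array therefore changes many members at once, and the members are not independent of each other. The high vehicle GFP- array of replicate 4 also had the highest mean of the proliferation, erythroid, macrophage, lymphocyte, globose basal and Bowman's gland markers of all arrays, whose part was not tested.

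**Figure D3:**
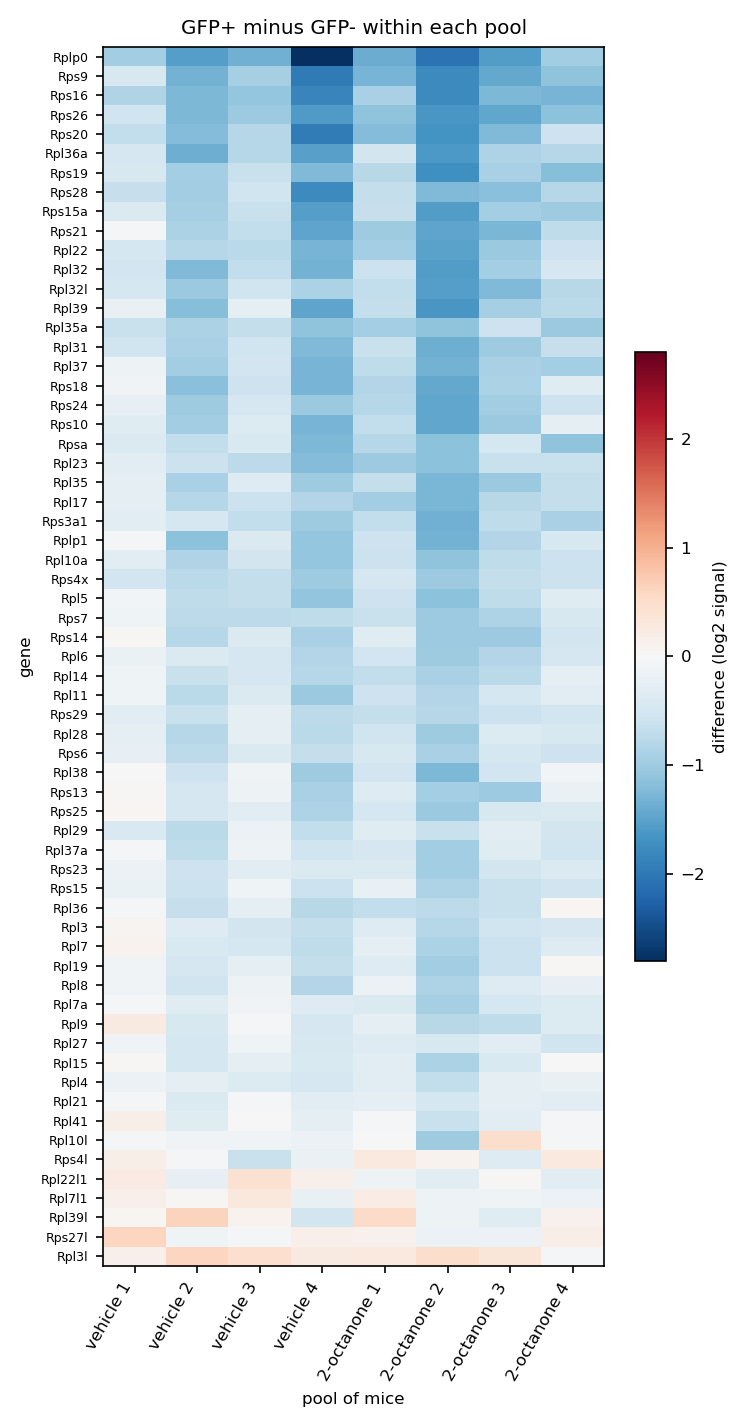
Difference between the GFP+ and the GFP- array of each pool (colour, log2 signal) for the 63 members, ordered by their mean difference, in 4 vehicle and 4 2-octanone pools. Blue is lower in GFP+ cells: Rplp0 at the top reaches -2.78 in vehicle pool 4, vehicle pool 1 is the palest column (median -0.16), and the paralogues at the bottom change sign between pools; values are as deposited, before any median centring.

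The sort was also tested within each exposure, with fewer calls. In vehicle pools 30 members were lower and none was higher by limma (43 lower and 0 higher at an unadjusted p under 0.05), while 18.6% of all probe sets were called and 11.0% were called lower; the median was -0.52 over members and 0.12 over all genes. In 2-octanone pools 42 members were lower and none was higher (55 and 0 at an unadjusted p under 0.05), while 15.1% were called and 9.80% were called lower; the median was -0.68 over members and 0.12 over all genes. Median centring reduced these counts to 9 lower and 2 higher in vehicle pools, where 8.85% of all probe sets were lower and 48.8% higher, and to 27 lower and 1 higher in 2-octanone pools, where 8.28% were lower and 40.4% higher. Both counts rest on few pools: the vehicle count was 8 without vehicle replicate 2, 9 without vehicle replicate 4, 12 without both replicate 4 pools and 18 with only the arrays compared, and the 2-octanone count was 11 without 2-octanone replicate 2 and 25 without 2-octanone replicate 3. The count over both exposures stayed between 43 and 53 when a pool was left out, and was 53 without both replicate 4 pools. Leaving out arrays affects the calls of all probe sets, and their share in each of these settings is not given here. The changes in these counts are therefore not read as particular to the members.

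The 5 members with the largest sort difference were picked by their value over both exposures. Large values in each exposure follow in part from that choice. Rplp0 differed by -1.66 in vehicle and -1.50 in 2-octanone pools, Rps16 by -1.26 and -1.31, Rps9 by -1.17 and -1.41, Rps26 by -1.10 and -1.34, and Rps20 by -1.17 and -1.18. All of these passed the test in both exposures, with the largest adjusted p at 0.00495 (limma). The 2 exposures did not differ detectably: for the interaction of sort and exposure, which is the change in the GFP+/GFP- ratio, 0 of 63 members and 0% of all probe sets were called by limma, and no member had an unadjusted p under 0.05. The ratio difference was negative for 54 members with a median of -0.14, and its 95% intervals had a median half-width of 0.60. The extremes were Rpl9 at -0.35 (95% interval -1.02 to 0.32) and Rps4l at 0.24 (-0.39 to 0.87).

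Exposure to 2-octanone gave no member call in either fraction. In GFP+ cells, 0 of 63 members were called by limma where 0% of all probe sets were, no member had an unadjusted p under 0.05, and the median difference, 2-octanone minus vehicle, was -0.06 over members and 0.01 over all genes. In GFP- cells, 0 of 63 members were called where 0.00511% of all probe sets were (1 gene), no member had an unadjusted p under 0.05, and the medians were 0.07 and -0.00078. The difference was negative for 47 members in the GFP+ fraction and positive for 45 in the GFP- fraction. The GFP+ median was 0.02 without vehicle replicate 1, and the GFP- median was -0.02 without either 2-octanone replicate 2 or vehicle replicate 3.

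How large a change could have been missed is given by the intervals. The 95% intervals of the members had a median half-width of 0.42 in each fraction, and all 63 lay within 1 log2 unit of 0. In GFP+ cells the lowest differences were Rps26 at -0.34 (95% interval -0.74 to 0.06), Rps21 at -0.31 (-0.92 to 0.30), Rps15 at -0.30 (-0.62 to 0.03) and Rpl22l1 at -0.26 (-0.76 to 0.25). The highest were Rps4l at 0.19 (-0.26 to 0.63), Rplp0 at 0.13 (-0.50 to 0.76), Rpl32 at 0.13 (-0.43 to 0.68) and Rpl35a at 0.11 (-0.49 to 0.70). In GFP- cells the differences ran from Rpl36a at -0.13 (-0.65 to 0.39) to Rpl32l at 0.24 (-0.36 to 0.84). Every one of these intervals includes 0, and none shows that the exposures act alike.

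**Figure D4:**
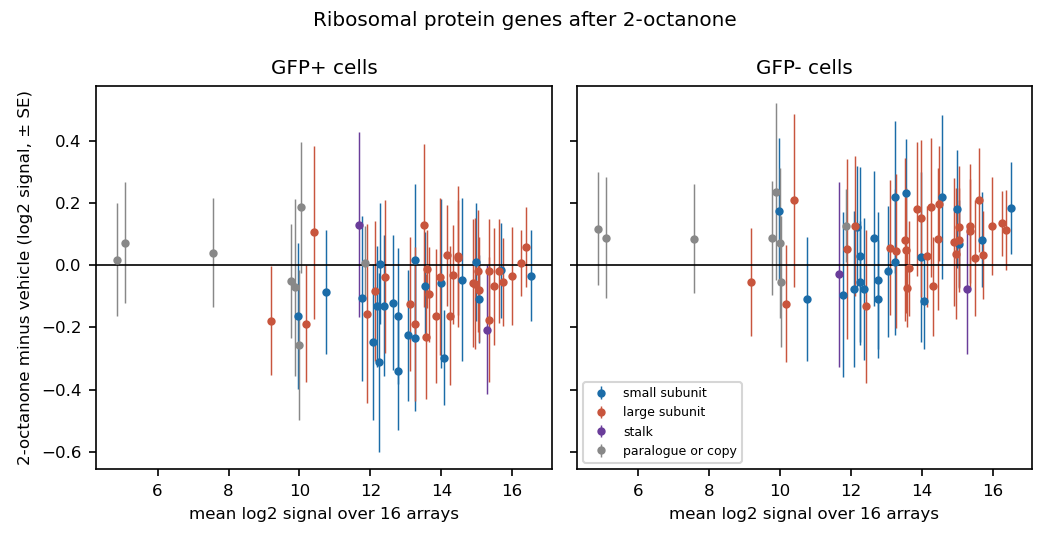
Difference between 2-octanone and vehicle (y axis, log2 signal, points with standard errors, n = 4 arrays per group) against mean signal over 16 arrays (x axis) for the 63 members in GFP+ (left) and GFP- cells (right), coloured by class. The points scatter between -0.34 and 0.24, none passed an adjusted p of 0.05 in limma, and the medians were -0.06 and 0.07.

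Genes of related steps were compared from fixed lists. Fau, whose product carries the small-subunit protein eS30, differed by -0.61 (SE 0.12, limma adjusted p = 0.0011), and Rpl36al, a retained copy of Rpl36a, by -0.38 (SE 0.13, adjusted p = 0.0399). These are the 2 measured of 4 listed ribosomal products outside the symbol rule. With median centring Fau stayed lower (-0.34, adjusted p = 0.0191) and Rpl36al did not pass (-0.10, adjusted p = 0.467). Of 13 other translation genes with TOP messenger RNAs, 7 were lower and none was higher (median -0.29), where 14.0% of all probe sets were lower. With median centring 4 were lower (median -0.01), where 10.5% of all probe sets were. Eef1b2, an elongation factor subunit, differed by -0.91 (SE 0.16, adjusted p = 0.000255). Pabpc1, the cytoplasmic poly(A)-binding protein, differed by -0.73 (SE 0.09, adjusted p = 9.53e-06), and Eif3f, an initiation factor subunit, by -0.62 (SE 0.11, adjusted p = 0.000236). Eef1a1, the main elongation factor, differed by -0.30 (SE 0.08, adjusted p = 0.00743) and by -0.02 with median centring.

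Lists further from the ribosome itself gave few calls as deposited, where 14.0% of all probe sets were called lower and 16.7% higher. Of 13 initiation factors, 1 was lower (Eif4a1, -0.27, SE 0.10, limma adjusted p = 0.0468) and none higher, and with median centring 8 were higher and none lower, a share (61.5%) below the 66.9% of all probe sets. Among 31 ribosome biogenesis genes 2 were lower, Npm1 (-0.40, SE 0.11) and Fbl (-0.29, SE 0.10), both nucleolar proteins. Another 2 were higher, Rbm28 (0.51, SE 0.13) and Rrp9 (0.36, SE 0.10), which act in the maturation of ribosomal RNA. Rbm28 lay below the brightest background probe set on 11 of 16 arrays. With median centring 16 of the 31 (51.6%) were higher and none lower, again below the share of all probe sets. Myc, a transcription factor that raises ribosome production, was lower in GFP+ cells (adjusted p = 5.51e-10). Its mean was 9.79 in GFP- cells and 5.90 in GFP+ cells, where all 8 arrays lay below the brightest background probe set, so the size of its difference is only a bound. Its relative Mycl differed by -0.67 (SE 0.21, adjusted p = 0.0236) with all 16 arrays below the brightest background probe set, and with median centring it did not pass (-0.39, adjusted p = 0.102). The other 11 genes of the RNA polymerase I and Myc list did not pass as deposited. In the mTOR list, 1 of 11 was lower, Eif4ebp1, the inhibitor of cap-dependent initiation (-0.84, SE 0.16, adjusted p = 0.000643), with 14 of 16 arrays below the brightest background probe set. Mtor itself differed by 0.23 (SE 0.10, adjusted p = 0.0884), and Larp1 by 0.15 (SE 0.12, adjusted p = 0.373). With median centring 7 of the 11 (63.6%) were higher, among them Mtor (0.51, adjusted p = 0.000325) and Larp1 (0.42, adjusted p = 0.00521), and Eif4ebp1 stayed lower (-0.57).

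The 76 mitochondrial ribosomal protein genes, which serve the separate ribosome of that organelle, did not fall with the cytosolic genes. As deposited 11 (14.5%) were higher in GFP+ cells, no larger a share than the 16.7% of all probe sets, and none was lower, with a median of 0.14, close to the 0.13 of all genes. With median centring 70 were higher and none lower, where 66.9% of all probe sets were higher. Mrpl37 differed by 0.43 (SE 0.12, limma adjusted p = 0.0103) and Mrpl47 by 0.34 (SE 0.09, adjusted p = 0.0113).

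**Figure D5:**
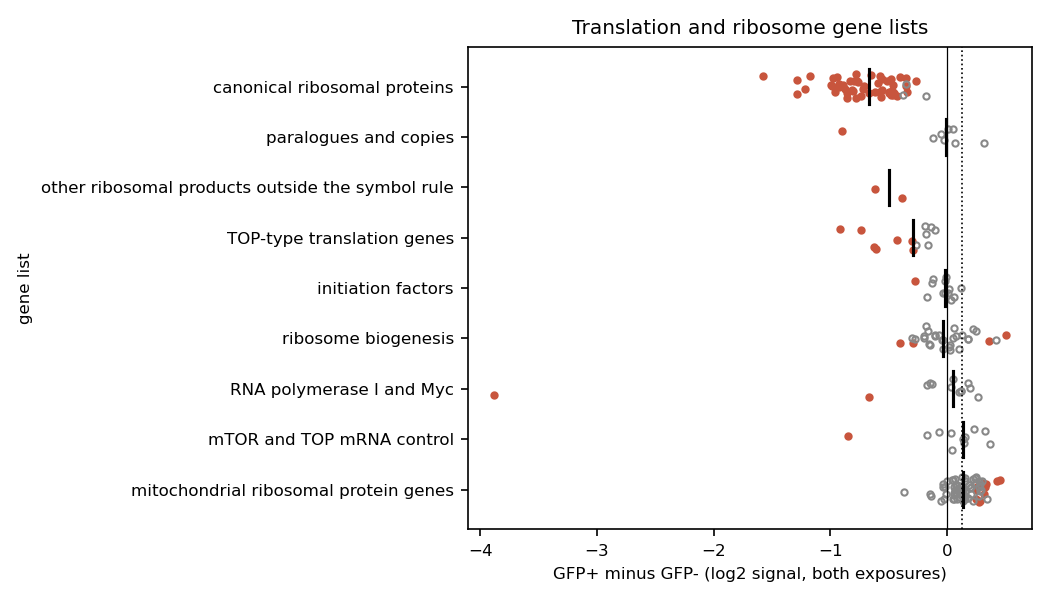
Sort difference (GFP+ minus GFP-) of both exposures combined (x axis, log2 signal as deposited) for each gene of the canonical ribosomal proteins, the paralogues and 7 related lists; filled red points passed an adjusted p of 0.05 in limma, black bars are list medians and the dotted line is the median of all genes. Canonical genes (median -0.67) and TOP-type translation genes (median -0.29) lie to the left, mitochondrial ribosomal genes (median 0.14) around the dotted line, and Myc, whose GFP+ signal is at background, far left; with each array centred on its median the TOP-type median is -0.01.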

How the data were processed

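The deposited table gives 28846 probe sets on 16 arrays as normalised signals between 2.13 and 18.99, which were read as log2 values from their range. Affymetrix Expression Console made them, per the submitters' processing notes; the log base, the algorithm and the library version are not given in the sources used here. Of the probe sets, 6640 were controls, 19572 named 1 gene and the other 2634 did not name exactly 1 gene. Gene symbols came from the platform annotation through Entrez identifiers, and promoter sequences and coordinates from RefSeq on GRCm38.p6.

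The 16 arrays were fitted in limma 3.58.1 (R 4.3.3, lmFit and eBayes) on 4 group means, with 12 residual and 4.19 prior degrees of freedom, two-sided, and p-values were adjusted over 19572 probe sets by Benjamini-Hochberg with a threshold of 0.05. The fit was tried on simulated data for the sort over both exposures, with 19572 genes, 50 of them changed by each amount. It called 80% of changes of -1, 40% of -0.5, 30% of 0.5 and 86% of 1, with 6 false calls. The noise was drawn for each gene separately. In the real sort 6000 probe sets were called and the members moved together, so these rates do not carry over to it. The number of arrays, 4 per group, limits the precision, and the labels give separate pools of 3 mice as replicates.

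The members, the gene lists and the rule for named genes were chosen with earlier results of these data known. The rule took, per comparison, the 4 members with the largest difference in each direction, those of highest and lowest signal and of largest SD within groups, every paralogue, 8 genes of known role and, per list, the 2 to 4 genes of smallest p. Parents shown beside a paralogue, genes with a printed start, canonical genes that missed the threshold, Mtor, Larp1, Eef1a1 and pools or arrays singled out were chosen otherwise or after their values were seen.

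The fractions of a pool come from the same mice and are paired; correlations of their residuals across genes were -0.00 to 0.46. The replicate number was also checked as a pairing of the exposures: residual correlations were 0.19, 0.17, 0.26 and 0.43 in GFP+ and 0.34, -0.06, 0.35 and 0.52 in GFP- cells. Alternatives were quantile normalisation, median centring, a filter on low signals, the trend and robust options of limma, array weights and a threshold of 0.1. Others were inclusion of probe sets that did not name exactly 1 gene, only the arrays compared and the mean of probe sets per gene. The last were each pool left out, both replicate 4 pools left out, and the pool or replicate number as a block.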

Additional observations from a re-analysis of the deposited data

Results flagged for a closer look

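Dixon's criterion was applied to the named members, and to the median of all members, in each group of 4 arrays. It was also applied to the 4 within-pool differences of each exposure, but not for members named only from another comparison. The gap between the highest or lowest value and its nearest neighbour was divided by the range of all 4 values. A share above 0.829 was flagged. Of 196 such groups, 9 held a value that lay apart, and chance picks about 1 in 20 groups. In the vehicle GFP- array of replicate 4, Rplp0 was at 13.47 (the others at 12.01 to 12.23) and Rpl5 at 15.34 (14.53 to 14.62). In the vehicle GFP+ array of replicate 1, Rplp0 was at 11.24 (10.66 to 10.69), Rpl36 at 10.49 (9.86 to 9.96) and Rpl11 at 14.44 (13.92 to 13.96). These are 2 of the arrays in which all 55 canonical genes were high. In the 2-octanone GFP+ array of replicate 4, Rps23 was at 16.52 (16.16 to 16.21), and in the 2-octanone GFP- array of replicate 2, Rps4l was at 9.54 (10.18 to 10.20). Within 2-octanone pools, the difference of Rpl7l1 was 0.21 in pool 1 (-0.15 to -0.12 in the others) and that of Rpl21 was -0.50 in pool 2 (-0.29 to -0.26).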

How the results depend on the processing

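Apart from Rpl21 under median centring, every change of sign was in a member that did not pass the test in that comparison, and the cause was not tested. Quantile normalisation gave, for the sort over both exposures, Rpl39l -0.00071, Rpl7l1 -0.027, Rpl10l 0.16 and Rpl22l1 0.0035, and for the sort in 2-octanone pools Rpl39l -0.0095 and Rps27l 0.020. Median centring, which raises every GFP+ value relative to GFP-, gave Rpl21 0.014, Rpl10l 0.16, Rpl22l1 0.26 and Rps4l 0.23 over both exposures, Rps27l 0.25 and a member median of -0.43 in 2-octanone pools, and 11 called members in vehicle pools. Fitting only the arrays compared, which leaves fewer arrays for the spread, called 18 members in vehicle pools. Without both replicate 4 pools the vehicle count was 12, Rplp0 in GFP+ cells was -0.090 between exposures, Rpl36a, Rpl36 and Rps28 in GFP- cells were 0.015, 0.039 and 0.10, and the ratio changes of Rplp0 and Rpl36a were -0.39 and -0.11. Array weights gave Rpl22l1 0.044 and, in 2-octanone pools, Rps4l -0.030, with Rps28 at 0.0018 in GFP- cells and a ratio change of -0.094 for Rplp0.

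Leaving out each pool in turn gave ranges for the same values. Over both exposures they were -0.010 to 0.11 for Rps27l, -0.037 to 0.15 for Rpl39l, -0.033 to 0.056 for Rpl7l1, -0.23 to 0.019 for Rpl10l, -0.072 to 0.040 for Rpl22l1 and -0.10 to 0.029 for Rps4l. In vehicle pools the count ran from 8 to 31, Rps27l from -0.017 to 0.22 and Rpl7l1 from -0.0082 to 0.16. In 2-octanone pools the count ran from 11 to 44, Rpl39l from -0.12 to 0.17 and Rps27l from -0.070 to 0.053. The share of all probe sets called without each pool is not given beside these counts. Between exposures in GFP+ cells the ranges were -0.047 to 0.27 for Rplp0, -0.027 to 0.25 for Rpl32 and -0.045 to 0.24 for Rpl35a. In GFP- cells they were -0.33 to 0.067 for Rpl36a, -0.24 to 0.0024 for Rps15 and -0.30 to 0.11 for Rps28. For the ratio they were -0.21 to 0.39 for Rplp0, -0.062 to 0.32 for Rpl36a and -0.021 to 0.17 for Rpl29. For the named members, 1074 other recomputed values kept their direction and their side of the threshold, 11 passed it newly and 4 no longer passed.

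The paired fit with the pool as a replicate block called 56 members over both exposures, 37 in vehicle pools, 48 in 2-octanone pools and 0 for the ratio. These counts take both directions, and the 56 include Rpl3l, which was higher in GFP+ cells. The share of all probe sets that this fit called is not given here, so the counts are not read as particular to the members. The replicate number as a block called 0 in each fraction between exposures. Over both exposures the block changed the calls of Rpl3l, Rpl7a and Rpl9, and it changed no other call of a gene named by rule. With 4 arrays per group, a member that missed the threshold may still differ. Rpl3l and Rpl39l lay below the mean of the background probe sets, where no difference can be read.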
